A study of Homo sapiens with 10 samples.

Results

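The 9 genes described here are NFE2L2, which encodes the transcription factor NRF2, and 8 of its glutathione and thioredoxin targets, GCLC, GCLM, SLC7A11, GSR, TXNRD1, SRXN1, NQO1 and OSGIN1. They were taken from the gene-level RNA-seq count table by gene symbol, each symbol matched 1 entry, and all 9 of them, out of 60651 genes in the table, had enough reads to be tested. The samples were 10 libraries of 2 human cell lines, in 5 groups of 2 libraries that the series calls biological replicates. The groups were HT29 cells with 10 µM VXN, HT29 cells with the solvent DMSO, t-hESC cells with 10 µM VXN, t-hESC cells with 1 µM BIX, and t-hESC cells with DMSO, all at 48 hours. HT29 is an established human colorectal adenocarcinoma line, and the labels describe t-hESC as a transformed line of pluripotent stem cells. Agent and dose came from the sample titles, because the treatment field reads DMSO for every sample. The labels name the agents only as VXN and BIX and give no genotype beyond the line.

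NRF2 is held at a low level by KEAP1, an adaptor that senses electrophiles and oxidants and presents NRF2 to a CUL3 ubiquitin ligase. When KEAP1 is modified, NRF2 accumulates, pairs with a small MAF protein and binds antioxidant response elements near its target genes. Because the control acts on the protein, the level of NFE2L2 mRNA and the activity of NRF2 are separate quantities, and only mRNA was measured here. The targets supply and recycle the thiols that cells use against oxidants: GCLC and GCLM are the catalytic and modifier subunits of glutamate-cysteine ligase, the rate-limiting enzyme of glutathione synthesis, and SLC7A11 is the cystine-importing subunit of the xCT transporter. GSR reduces oxidised glutathione, TXNRD1 is the cytosolic thioredoxin reductase, SRXN1 reduces overoxidised peroxiredoxins, and NQO1 reduces quinones. OSGIN1 is an oxidative-stress-induced growth inhibitor.

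Promoter windows from RefSeq (GRCh38.p14), each running from 250 bases before to 50 bases after an annotated start site, were found for 7 of the 9 genes. They were searched on both strands for the antioxidant response element core, written as TGACNNNGC or TGAGNNNGC. A match was present for 5 of the 7 genes (NFE2L2, GCLM, NQO1, TXNRD1 and OSGIN1) and for neither GCLC nor SRXN1. The shares overall were 33.7% of all 27305 genes with a window and 29.1% of all 35116 windows. The form TGACNNNGC was present only for GCLM and TXNRD1, beside 16.1% of all genes with a window. NFE2L2, NQO1 and OSGIN1 matched only as TGAGNNNGC. Sequence outside the windows was not searched. The 4 windows below belong to the 3 genes that both held a match and rose at least 2-fold under VXN in HT29 cells. They are printed in the direction of transcription, with the matches in capitals. A match on the opposite strand appears as its reverse complement.
GCLM, chr1:93909381-93909680, minus strand: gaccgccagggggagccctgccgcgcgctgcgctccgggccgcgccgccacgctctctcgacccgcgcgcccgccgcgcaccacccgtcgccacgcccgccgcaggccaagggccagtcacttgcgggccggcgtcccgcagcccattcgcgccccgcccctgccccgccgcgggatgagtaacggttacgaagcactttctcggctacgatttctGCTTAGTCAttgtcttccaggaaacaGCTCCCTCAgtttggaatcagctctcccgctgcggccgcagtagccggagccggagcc
TXNRD1, first start site, chr12:104215529-104215828, plus strand: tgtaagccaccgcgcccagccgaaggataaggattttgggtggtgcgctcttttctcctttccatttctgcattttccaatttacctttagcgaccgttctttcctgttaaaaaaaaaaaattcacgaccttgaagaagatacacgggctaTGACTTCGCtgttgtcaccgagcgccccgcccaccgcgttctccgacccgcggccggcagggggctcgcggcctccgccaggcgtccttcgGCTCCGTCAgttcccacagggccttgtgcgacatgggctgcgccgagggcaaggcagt
TXNRD1, second start site, chr12:104286782-104287081, plus strand: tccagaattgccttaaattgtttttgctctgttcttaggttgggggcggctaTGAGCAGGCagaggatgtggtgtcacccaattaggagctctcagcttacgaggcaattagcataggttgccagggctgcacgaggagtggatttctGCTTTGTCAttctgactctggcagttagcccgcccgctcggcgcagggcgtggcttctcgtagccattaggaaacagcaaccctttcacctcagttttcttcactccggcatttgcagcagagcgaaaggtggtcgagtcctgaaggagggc
OSGIN1, chr16:83952990-83953289, plus strand: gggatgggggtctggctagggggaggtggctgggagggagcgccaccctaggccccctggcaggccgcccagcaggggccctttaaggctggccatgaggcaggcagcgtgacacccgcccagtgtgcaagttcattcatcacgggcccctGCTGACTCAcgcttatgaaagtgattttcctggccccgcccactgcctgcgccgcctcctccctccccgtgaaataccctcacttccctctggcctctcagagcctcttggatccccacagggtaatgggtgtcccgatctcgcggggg
In GCLM the matches, read on the opposite strand, were TGACTAAGC at 34 to 26 bases before the start site and TGAGGGAGC across the start site itself. TXNRD1 had TGACTTCGC and TGACGGAGC in the first window, and TGAGCAGGC and TGACAAAGC in the second. OSGIN1 had TGAGTCAGC, 99 to 91 bases before the start site, whose letters overlap an AP-1 element of the form TGANTCA, the only AP-1 match in the windows of the 7 genes. An AP-1 match was present for 9.37% of all genes with a window. These are letter matches in short windows and no binding was measured.

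Gene counts summed to between 13137026 and 24492838 reads per library, and the 2 libraries of each group correlated at 0.9955 to 0.9981 across genes on the log2 scale. Levels are given as CPM, the number of reads of a gene scaled to a common library total by TMM, which adjusts for library size and composition but not for gene length, so levels are compared between groups and not between genes. In bulk libraries, fewer cells of a type and less RNA per cell cannot be told apart. Summed over 8 pluripotency markers, HT29 libraries held 13.2 to 18.0 CPM and t-hESC libraries 4463 to 5187 CPM, and over 8 colorectal epithelium markers HT29 libraries held 1081 to 1476 CPM and t-hESC libraries 6.71 to 11.4 CPM. The colorectal sum in HT29 cells came mainly from LGALS4, KRT20 and VIL1, at means of 644.2, 249.4 and 182.4 CPM with DMSO, whereas CDX1, CDX2, CDH17 and GPA33 averaged 0.27 to 1.67 CPM there. Of the 8 colorectal markers, 1 to 4 were at 0 in each t-hESC library.

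The question in HT29 was what 10 µM VXN did to the NRF2 programme of a colorectal cancer line. All 9 genes were higher with VXN than with DMSO, in both VXN libraries and beyond both DMSO libraries. The changes ran from a small one in NFE2L2 itself to about 7.03-fold in OSGIN1, with SRXN1, GCLC and TXNRD1 between 3.58-fold and 5.41-fold. Differences were tested with edgeR's quasi-likelihood F test on counts, with 22495 genes tested and Benjamini-Hochberg adjustment over all of them. A gene was called at an adjusted p under 0.05. All 9 genes were called higher, beside 33.0% of all genes tested, and 6 rose 2-fold or more, beside 12.2% of all genes. All 9 had groups that did not overlap with VXN above DMSO, beside 42.4% of all genes. Their median log2 fold change was 1.43, beside 0.055 for all genes tested.

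**Figure D1:**
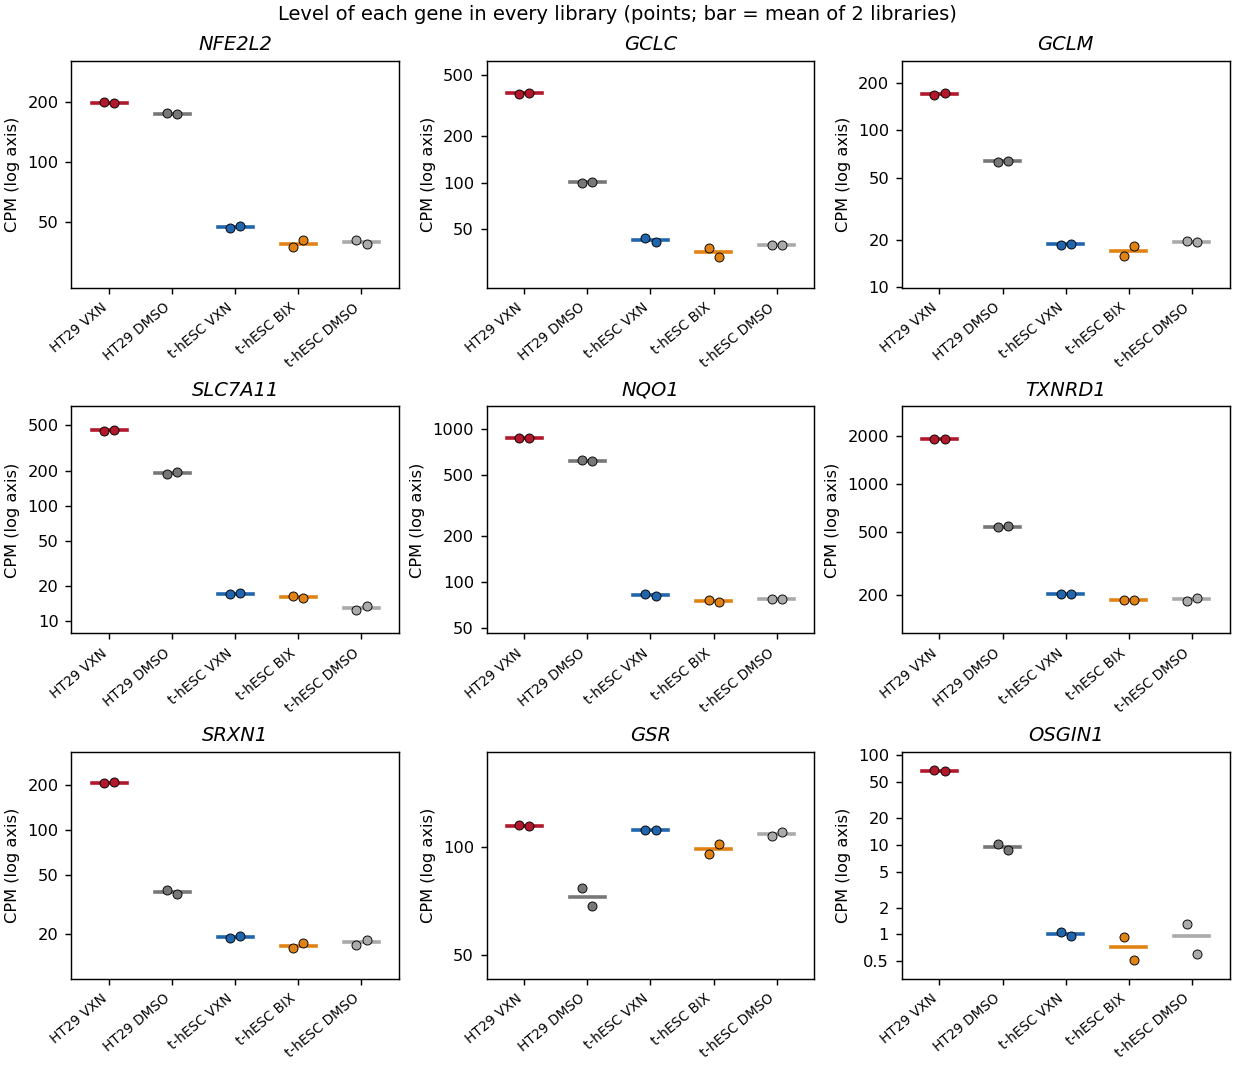
CPM of each of the 9 genes in every library (points, log axis) with the mean of 2 libraries as a bar, for the 5 groups. In 8 panels both HT29 groups sit above all t-hESC groups and HT29 VXN is highest; in the GSR panel HT29 DMSO is lowest, at 68.5 and 77.0 CPM.

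NFE2L2 (chromosome 2, 177230303 to 177264727; coordinates from RefSeq on GRCh38.p14) had 199.5 and 196.0 CPM in HT29 VXN libraries, against 174.6 and 173.2 CPM in HT29 DMSO libraries. The groups did not overlap, but the difference was the smallest of the 9 genes, with a log2 fold change of 0.19 ± 0.035 (SE; edgeR adjusted p = 4.37e-06) and rank 9448 of 22495 from the highest.

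Both subunits of glutamate-cysteine ligase and the cystine transporter SLC7A11 rose in HT29 cells. GCLC (chromosome 6, 53497341 to 53545101) had 375.0 and 385.4 CPM in VXN libraries, against 99.5 and 101.5 CPM in DMSO libraries. GCLM (chromosome 1, 93885199 to 93909430) had 169.4 and 173.1 CPM in VXN libraries, against 63.1 and 63.6 CPM in DMSO libraries. In both subunits the lowest VXN library lay far above the highest DMSO library. The log2 fold change was 1.92 ± 0.036 for GCLC and 1.43 ± 0.041 for GCLM (SE; edgeR adjusted p = 7.07e-51 and 2.39e-40). SLC7A11 (chromosome 4, 138164097 to 138242349), which imports the cystine that this synthesis uses, had 451.0 and 457.0 CPM in VXN libraries, against 190.6 and 197.3 CPM in DMSO libraries. Its log2 fold change was 1.23 ± 0.032 (edgeR adjusted p = 1.08e-42). The antisense gene SLC7A11-AS1 overlaps its 3′ part and averaged 26.6 CPM with VXN and 12.4 CPM with DMSO in HT29 cells. The library kit does not mark strand, so reads of the pair cannot be told apart there.

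Of the genes that recycle thiols, SRXN1 and TXNRD1 rose more than GSR. SRXN1 (chromosome 20, 646615 to 653200) had 208.1 and 209.9 CPM in HT29 VXN libraries, against 39.7 and 37.6 CPM in HT29 DMSO libraries. TXNRD1 (chromosome 12, 104215779 to 104350307) had 1915 and 1931 CPM in VXN libraries, against 535.5 and 539.2 CPM in DMSO libraries. GSR (chromosome 8, 30678066 to 30727846) had 115.6 and 114.3 CPM in VXN libraries, against 77.0 and 68.5 CPM in DMSO libraries. TXNRD1 contains the small gene EID3, at a mean of 0.947 CPM with VXN and 0.0831 CPM with DMSO in HT29 cells. It also contains the pseudogene RPL18AP3, at 10.9 CPM with VXN and 8.13 CPM with DMSO in HT29 cells. Noncoding genes overlap GCLC, NQO1, TXNRD1 and SRXN1 too, but their symbols matched no single entry, so their levels are not given. No VXN library of SRXN1, TXNRD1 or GSR fell among the DMSO libraries. In proportion to their level, the 2 GSR DMSO libraries were the farthest apart of the 3 pairs of DMSO libraries. Log2 fold changes were 2.43 ± 0.044 for SRXN1, 1.84 ± 0.029 for TXNRD1 and 0.66 ± 0.044 for GSR (SE; edgeR adjusted p = 7.32e-52, 1.55e-55 and 1.94e-21).

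NQO1 and OSGIN1 marked the low and high ends of the targets outside the thiol cycles. NQO1 (chromosome 16, 69709401 to 69726560) had 874.6 and 873.4 CPM in HT29 VXN libraries, against 622.6 and 615.4 CPM in HT29 DMSO libraries. OSGIN1 (chromosome 16, 83953240 to 83966332) had 68.3 and 66.6 CPM in VXN libraries, against 10.3 and 8.87 CPM in DMSO libraries. Both separated the groups, NQO1 by a log2 fold change of 0.50 ± 0.028 and OSGIN1 by 2.81 ± 0.073 (SE; edgeR adjusted p = 1.18e-24 and 8.46e-43). NQO1, often used as the standard readout of NRF2 activity, ranked 6440 of 22495 genes from the highest log2 fold change, while OSGIN1 ranked 766. Together the 9 genes took 0.409% and 0.412% of all gene counts in HT29 VXN libraries, against 0.180% and 0.181% in HT29 DMSO libraries.

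**Figure D2:**
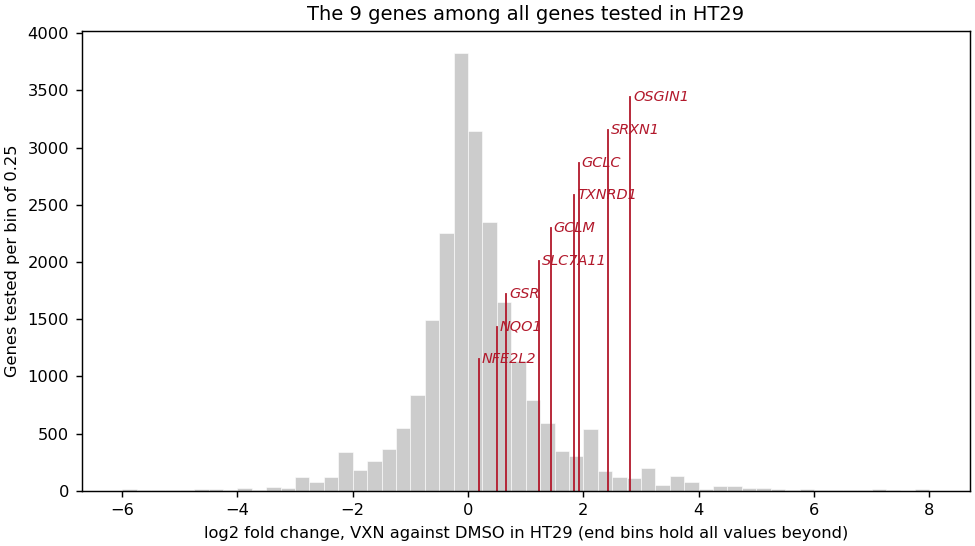
Distribution of log2 fold changes, VXN against DMSO in HT29, over the 22495 genes tested (grey bars, genes per bin), with the 9 genes as red lines whose heights only separate the names. NFE2L2 at 0.19 lies near the centre and OSGIN1 at 2.81 in the upper tail.

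The direction and the call held for all 9 genes in HT29 under all 17 alternative settings, with the lowest log2 fold change at 0.13 for NFE2L2. In the authors' deposited table of the same comparison, 7 of the 9 genes passed an adjusted p of 0.05, all of them higher. The share of all genes passing in that table was not determined, so nothing is drawn from the count. NFE2L2 and NQO1 did not pass in the authors' deposited table, with adjusted p-values of 0.706 and 0.395. The cause of this difference between the tests was not tested. Fibroblast markers, a list of 8 genes, summed to 9.74 and 7.55 CPM in HT29 VXN libraries, against 4.28 and 3.28 CPM in HT29 DMSO libraries, and colorectal markers to 1476 and 1469 CPM, against 1090 and 1081 CPM. Of the colorectal markers, 2 of the 7 tested were called higher and 2 lower. Their part in the result was not tested.

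The rest of the pathway moved unevenly in HT29 cells. Other NRF2 targets, a list of 22 genes for haem and iron handling, export and detoxification, had 21 genes called higher and 1 lower. Of all genes tested, 33.0% were called higher and 26.9% lower. The list had a median log2 fold change of 1.68, beside 0.055 for all genes. It was chosen with earlier results of these data known, so its share is not that of all NRF2 targets. Among genes of the list averaging at least 4 CPM, the aldo-keto reductases AKR1C1 and AKR1C2 had the smallest edgeR p-values. Their log2 fold changes were 6.07 ± 0.046 and 6.89 ± 0.062. AKR1C1 averaged 887.4 ± 14.3 CPM with VXN and 13.2 ± 0.88 CPM with DMSO, and AKR1C2 427.3 ± 2.26 CPM with VXN and 3.61 ± 0.27 CPM with DMSO (SD, n = 2 each). The 2 sequences are nearly identical, so the split of reads between them is uncertain. FTH1, the ferritin heavy chain, which has many pseudogene copies, rose by 2.47 ± 0.028 on the log2 scale. HMOX1, haem oxygenase and a classical NRF2 target, was chosen after its values were seen and averaged 36.5 ± 0.33 CPM with VXN and 8.25 ± 0.62 CPM with DMSO (SD, n = 2 each).

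Among 11 regulators and partners of NRF2, 8 genes rose and 3 fell in HT29 cells, with a median log2 fold change of 0.88. The shares over all genes tested were 33.0% called higher and 26.9% called lower. SQSTM1, the autophagy receptor that sequesters KEAP1, rose by 2.90 ± 0.030, NFE2L1, a relative of NRF2, by 1.65 ± 0.031 and MAFG, a small MAF partner, by 1.47 ± 0.037 (log2, SE). KEAP1, chosen after its values were seen, averaged 76.7 ± 0.13 CPM with VXN and 64.3 ± 2.69 CPM with DMSO (SD, n = 2 each; log2 fold change 0.25 ± 0.046, edgeR adjusted p = 1.94e-06).

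In the other 3 lists the direction was mixed, beside 33.0% of all genes called higher and 26.9% called lower. Of 14 genes of NADPH supply, the reducing power that GSR, TXNRD1 and NQO1 draw on, 9 rose and 4 fell (median 0.45). The enzymes ME1 and IDH1 rose by 1.61 ± 0.039 and 1.38 ± 0.032, whereas IDH2 fell by 2.34 ± 0.043 on the log2 scale. Of 22 further genes of glutathione synthesis, peroxidases and transferases, 8 rose, 10 fell and 4 were not called, and the median was 0.040 with 1 gene at or under 3 reads left out. SLC3A2, the heavy chain that pairs with SLC7A11, rose by 1.55 ± 0.030 and CHAC1, which degrades glutathione, by 2.42 ± 0.060, while the transferase GSTO1 fell by 1.00 ± 0.047. GSS, glutathione synthetase, which completes the synthesis after glutamate-cysteine ligase, was chosen after its values were seen and averaged 71.9 ± 2.09 CPM with VXN and 77.6 ± 1.22 CPM with DMSO (SD, n = 2 each; log2 fold change -0.11 ± 0.045, edgeR adjusted p = 0.0266). Of 17 further genes of the thioredoxin system and peroxiredoxins, 5 rose and 11 fell (median -0.42). The peroxiredoxins PRDX3 and PRDX2 fell by 1.40 ± 0.035 and 0.95 ± 0.041, and SESN2, a stress-induced sestrin, rose by 1.81 ± 0.050.

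**Figure D3:**
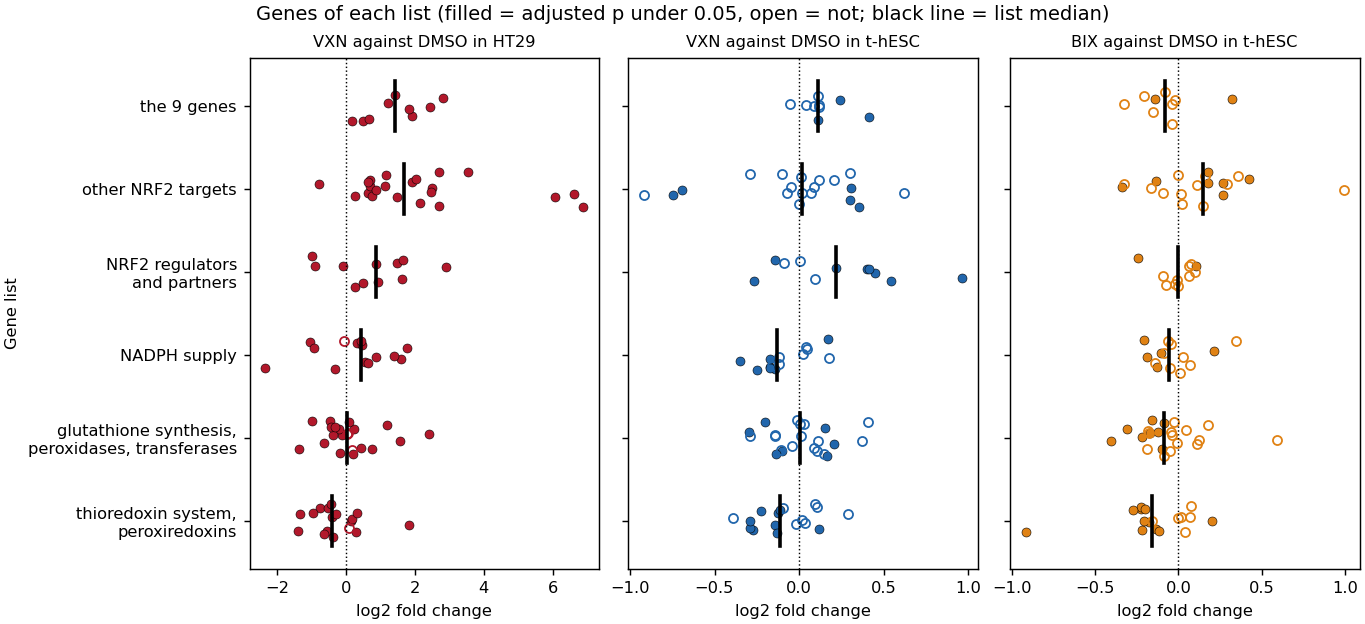
Log2 fold change of each gene of 6 lists under VXN in HT29 (left), VXN in t-hESC (centre) and BIX in t-hESC (right); filled points are genes called by edgeR, the black line is the list median, and genes at or under 3 reads in every library compared are not drawn. The x axes differ between panels. The 9 genes and the other NRF2 targets have medians of 1.43 and 1.68 on the left, and 0.11 and 0.014 in the centre.

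In t-hESC cells the same dose of VXN left most of the 9 genes near their DMSO level. Of the 9, 3 were called higher, NFE2L2, SLC7A11 and TXNRD1, and none lower, beside 14.5% of all genes called higher and 29.0% called in either direction. None of the 9 genes rose 2-fold, beside 1.53% of all genes, and the median log2 fold change was 0.11, beside 0.0036 for all genes. NFE2L2 had 46.5 and 47.7 CPM in t-hESC VXN libraries, against 40.8 and 39.0 CPM in t-hESC DMSO libraries. SLC7A11 had 17.1 and 17.5 CPM with VXN, against 12.5 and 13.5 CPM with DMSO. TXNRD1 had 201.8 and 201.4 CPM with VXN, against 182.2 and 191.4 CPM with DMSO. These 3 genes separated the groups, TXNRD1 narrowly. Log2 fold changes were 0.24 ± 0.057 for NFE2L2, 0.41 ± 0.088 for SLC7A11 and 0.11 ± 0.035 for TXNRD1 (SE; edgeR adjusted p = 0.000542, 0.000147 and 0.0123). The TXNRD1 call was lost without the first DMSO library (adjusted p = 0.297), with upper-quartile scaling (0.0538) and without a count filter (0.0582).

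SRXN1, GCLC, GCLM, NQO1, GSR and OSGIN1 did not pass the test in t-hESC cells. SRXN1 had 19.1 and 19.4 CPM in t-hESC VXN libraries, against 16.9 and 18.4 CPM in t-hESC DMSO libraries, a log2 fold change of 0.12 with a 95% interval of -0.045 to 0.28 (edgeR adjusted p = 0.308). GCLC had 44.0 and 41.4 CPM with VXN, against 39.4 CPM in both DMSO libraries, with an interval of -0.0020 to 0.23 (adjusted p = 0.142). GCLM had 18.6 and 18.9 CPM with VXN, against 19.7 and 19.3 CPM with DMSO, with an interval of -0.21 to 0.11 (adjusted p = 0.678). The upper ends of these intervals lie below the log2 fold changes of the same 3 genes in HT29 cells. NQO1 and GSR changed by 0.089 ± 0.044 and 0.042 ± 0.044 (adjusted p = 0.130 and 0.531). OSGIN1 was close to the limit of counting, with 7 to 24 reads per t-hESC library. It had 1.08 and 0.958 CPM with VXN, against 1.32 and 0.612 CPM with DMSO, and its interval ran from -0.58 to 0.81, so a change within it was not detectable at this depth. The end of OSGIN1 overlaps NECAB2, a calcium-binding protein gene that averaged 28.4 CPM with VXN and 32.5 CPM with DMSO in t-hESC cells, so some of these reads may belong to either gene. In all, 8 of the 9 genes had groups that did not overlap, 7 above DMSO and GCLM below it, beside 60.2% of all genes.

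With BIX at 1 µM, 8 of the 9 genes had a negative log2 fold change and SLC7A11 a positive one, most of them small. SLC7A11 was called higher and GSR lower, beside 10.9% of all genes called higher and 12.2% called lower, and the median log2 fold change was -0.080, beside 0.0015 for all genes. SLC7A11 had 16.6 and 15.9 CPM in t-hESC BIX libraries, against 12.5 and 13.5 CPM in t-hESC DMSO libraries. GSR had 96.0 and 101.8 CPM with BIX, against 107.5 and 110.0 CPM with DMSO. Neither gene's groups overlapped, and log2 fold changes were 0.32 ± 0.093 for SLC7A11 and -0.14 ± 0.046 for GSR (SE; edgeR adjusted p = 0.00648 and 0.0186). Both calls were lost in some alternatives with the direction kept: SLC7A11 stood at 0.29 (adjusted p = 0.0898) without the first BIX library and at 0.27 (0.087) without the first DMSO library, and GSR at -0.096 (0.259) without the first BIX library, -0.13 (0.108) without the second DMSO library and -0.12 (0.147) in DESeq2. GCLC and GCLM lay below DMSO in both BIX libraries, with 37.5 and 33.1 CPM for GCLC and 15.8 and 18.2 CPM for GCLM, and did not pass (adjusted p = 0.0756 and 0.0755). GCLC did pass without the first BIX library (0.0191) and GCLM without the second (0.0289). The other 5 genes had log2 fold changes of -0.33 to -0.020, none called. Groups did not overlap for 5 of the 9 genes, SLC7A11 above DMSO and GCLC, GCLM, NQO1 and GSR below it, beside 56.1% of all genes. In the authors' deposited tables none of the 9 genes passed under BIX or under VXN in t-hESC cells, with smallest adjusted p-values of 0.412 and 0.294. How many of all genes passed in those tables was not determined. In the fit described here, 4 genes had an unadjusted p under 0.05 in each of these comparisons. The share of all genes under that unadjusted threshold was not determined, so nothing is drawn from this count.

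**Figure D4:**
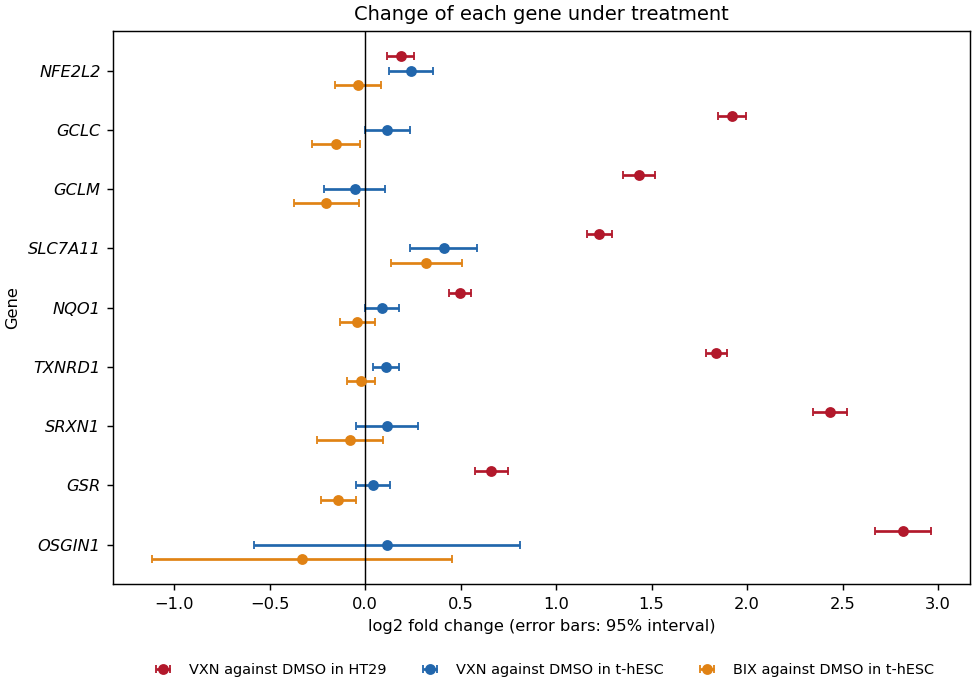
Log2 fold change of each gene against DMSO in the same line (points) with its 95% interval from the edgeR fit (bars): VXN in HT29 (red), VXN in t-hESC (blue) and BIX in t-hESC (orange). Red lies to the right of blue for every gene except NFE2L2, where 0.19 and 0.24 overlap in their intervals; the wide OSGIN1 bars in t-hESC rest on 7 to 24 reads.

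SLC7A11 was the only one of the 9 genes called under both agents in t-hESC cells. These comparisons share their DMSO libraries, so the values are set side by side without a further test. The change was 0.41 under VXN and 0.32 under BIX, and the direct difference, VXN over BIX, was 0.090 with an interval of -0.089 to 0.27 (edgeR adjusted p = 0.535).

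VXN and BIX were used at 10 µM and 1 µM in t-hESC cells, so agent and dose cannot be told apart. All 9 genes were higher in both VXN libraries than in both BIX libraries, beside 27.6% of all genes. Of these, 5 were called higher, NFE2L2 by 0.28, GCLC by 0.27, GSR by 0.18, NQO1 by 0.13 and TXNRD1 by 0.13 on the log2 scale, beside 11.6% of all genes (edgeR adjusted p between 0.000282 and 0.0337). NQO1 lost its call in 10 of 17 alternatives (adjusted p up to 0.191), GCLC without the second BIX library (0.0742) and GSR without the first BIX library (0.0761). The 9 values were small, from 0.090 for SLC7A11 to 0.44 for OSGIN1, and the interval of OSGIN1 ran from -0.35 to 1.24.

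Among the pathway lists in t-hESC cells, the thioredoxin and peroxiredoxin genes had more members lower than higher under both agents, and the regulators more higher than lower under VXN. Of all genes tested, 14.5% were called higher and 14.6% lower under VXN, and 10.9% higher and 12.2% lower under BIX. Under VXN, 3 of the 22 other NRF2 targets rose and 2 fell, with FTH1, FTL and BLVRB higher by 0.30, 0.31 and 0.35 on the log2 scale (median 0.014 with 3 genes at or under 3 reads left out). Of the 11 regulators, 6 rose and 2 fell (median 0.22), and SQSTM1 and MAFG rose by 0.45 ± 0.040 and 0.54 ± 0.049, with NFE2L3, another NRF2 relative, higher by 0.42 ± 0.034. Of the 17 thioredoxin and peroxiredoxin genes, 1 rose and 8 fell under VXN, and PRDX3 changed by -0.29 ± 0.034 on the log2 scale. Under BIX, 1 rose and 10 fell, with PRDX1, PRDX4 and PRDX6 at -0.23, -0.28 and -0.21. NADPH supply had 1 gene higher and 6 lower under VXN, and 1 higher and 4 lower under BIX, and the pentose phosphate enzyme PGD fell under both agents (-0.17 and -0.19). Of the 22 further glutathione genes, 3 rose and 4 fell under VXN, and 8 fell and none rose under BIX. The peroxidase GPX1 had the smallest edgeR p-value of these under BIX, with a log2 fold change of -0.31 ± 0.037. Of the other targets, 5 rose and 2 fell under BIX. Among those averaging at least 4 CPM, the exporter ABCC1 had the smallest edgeR p-value (log2 fold change 0.42 ± 0.041). Of the regulators, 1 rose and 1 fell under BIX. With these, summed fibroblast markers stood at 948.5 and 949.6 CPM in VXN libraries and 845.8 and 804.1 CPM in BIX libraries, against 682.3 and 681.4 CPM in DMSO libraries, while summed pluripotency markers stood at 4463 and 4484 CPM in VXN libraries and 5122 and 5018 CPM in BIX libraries, against 5187 and 5119 CPM in DMSO libraries. Most of the fibroblast sum was THY1 alone, at means of 856.0 CPM with VXN, 692.1 CPM with BIX and 586.8 CPM with DMSO. COL1A2 averaged 39.1, 69.6 and 41.2 CPM in the same groups. Of the 6 fibroblast markers tested, 1, THY1, was called higher and 2 lower under VXN, and 3 higher under BIX. The fibroblast sum is therefore not a measure of the list as a whole. Their part in these changes was not tested.

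Whether VXN acted differently in the 2 lines was tested directly, as the log2 fold change in HT29 minus that in t-hESC. For 8 of the 9 genes the VXN effect was larger in HT29 cells, beside 22.9% of all genes, and for 5 of them by 2-fold or more, beside 8.09%. OSGIN1 differed by 2.70 ± 0.38, SRXN1 by 2.32 ± 0.094, GCLC by 1.80 ± 0.070 and TXNRD1 by 1.73 ± 0.045 (SE; edgeR adjusted p from 4.20e-42 for TXNRD1 to 8.91e-09 for OSGIN1). GCLM differed by 1.49 ± 0.090, SLC7A11 by 0.82 ± 0.094, GSR by 0.62 ± 0.062 and NQO1 by 0.41 ± 0.052 (adjusted p from 1.07e-22 for GCLM to 7.75e-10 for NQO1). NFE2L2 was the exception, with a difference of -0.055 and an interval of -0.19 to 0.078 (adjusted p = 0.556). Its change was small in both lines, 0.19 in HT29 and 0.24 in t-hESC cells. All 8 calls held under all 17 alternatives.

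The lines also differed before any agent was given. With DMSO, 8 of the 9 genes were higher in HT29 than in t-hESC cells, beside 38.9% of all genes, and GSR was lower, beside 45.6% of all genes. SLC7A11, at 193.9 ± 4.73 CPM in HT29 DMSO and 13.0 ± 0.70 CPM in t-hESC DMSO (SD, n = 2 each), was 3.89 ± 0.054 higher on the log2 scale. OSGIN1 was higher by 3.35 ± 0.19, NQO1 by 2.99 ± 0.035 and NFE2L2 by 2.13 ± 0.045, and the other 4 by 1.12 to 1.70. GSR, at 72.7 ± 6.02 CPM in HT29 DMSO and 108.8 ± 1.77 CPM in t-hESC DMSO, differed by -0.58 ± 0.044 (edgeR adjusted p = 5.80e-19).

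With VXN in both lines the gap was wider for 7 genes and no longer passed the test for GSR. OSGIN1 was higher in HT29 VXN than in t-hESC VXN cells by 6.05 ± 0.13, SLC7A11 by 4.71 ± 0.049, and SRXN1, NQO1, TXNRD1, GCLM and GCLC by 3.15 to 3.44, while NFE2L2 stood at 2.07 ± 0.044. In this comparison 8 genes were called higher, beside 40.9% of all genes. GSR averaged 115.0 ± 0.95 CPM in HT29 VXN and 112.0 ± 0.071 CPM in t-hESC VXN, a difference of 0.038 with an interval of -0.048 to 0.12 (edgeR adjusted p = 0.404). The authors' deposited table of HT29 VXN against t-hESC VXN had 8 of the 9 genes past an adjusted p of 0.05, with GSR at 0.664. How many of all genes passed in that table was not determined. Upper-quartile scaling moved the median of all genes from -0.12 to -0.23 with DMSO and from -0.10 to -0.19 with VXN, and the 9 genes moved with it. Under it GSR stood at -0.69 with DMSO and -0.052 with VXN.

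The order of mean levels was the same for 8 genes at the top: HT29 VXN, then HT29 DMSO, then the t-hESC groups, with no overlap between lines. Within t-hESC cells the order was VXN, DMSO, BIX for 6 of them, whereas GCLM was highest with DMSO and SLC7A11 was higher with BIX than with DMSO. For SRXN1, OSGIN1 and GCLM no comparison among the t-hESC groups passed the test. For GSR the order was HT29 VXN, t-hESC VXN, t-hESC DMSO, t-hESC BIX and HT29 DMSO, and the neighbouring pairs HT29 VXN and t-hESC VXN, and t-hESC VXN and t-hESC DMSO, did not overlap but did not pass the test.

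For NFE2L2, GCLM and SLC7A11, the 3 genes outside the set, with a mean of at least 4 CPM, with the most similar profile were taken, by Pearson's r of log2 CPM over the 10 libraries after centring each line. These values are a description, since the libraries fall into 5 groups. NFE2L2 was closest to ARL2BP (r = 0.983), SLC36A4 (0.978) and DLGAP1-AS2 (0.977), all of which were higher with VXN in both lines and near 0 with BIX. GCLM was closest to 2 genes given only by identifier, ENSG00000285283 and ENSG00000274760 (both 0.997), and to TNS2-AS1 (0.996). SLC7A11 was closest to PML, a nuclear body protein (0.998), FLRT1 (0.997) and MYO15B (0.996). PML had log2 fold changes of 0.91 with VXN in HT29, 0.32 with VXN in t-hESC and 0.21 with BIX in t-hESC.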

How the data were processed

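RNA-seq libraries were made from total RNA with the TruSeq RNA v2 kit, per the labels' protocols. Reads were processed with fastp 0.20.1, FastQC 0.11.9, STAR and DESeq2 1.34.0 on GRCh38, per the submitters' processing notes; the sources used here do not name the counting step. The deposited table holds raw whole-number counts for 60651 genes and 1181 repeat families, and 4 further columns were not used. The authors' deposited comparison tables hold log2 fold changes and p-values, which are quoted only where named.

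From the gene counts, 22495 genes with enough reads (edgeR's filterByExpr, minimum count 10) were tested in 1 fit of all 10 libraries (R 4.3.3, edgeR 4.0.16, limma 3.58.1, TMM scaling, robust quasi-likelihood F test), with Benjamini-Hochberg adjustment over all of them and a gene called at an adjusted p under 0.05. Repeat families entered neither library sizes nor tests. CPM used the TMM-scaled gene totals, which ranged from 13137026 to 24492838 reads before scaling. SE was the absolute log2 fold change divided by the square root of the F statistic of the same fit. The 95% intervals were built symmetrically from this SE. The common coefficient of variation between libraries in the fit was 0.0207. With 2 libraries per group, a p-value reflects no more than how far replicate libraries differed, mostly as pooled over genes. The fit drew each gene's spread toward that of the other genes. Its median prior degrees of freedom were 56.7, beside 5 residual ones. Replicate libraries differed little beyond counting noise, with a chi-square per degree of freedom of 1.18 to 1.78 within groups. The fit was tested on simulated data before use. The members and gene lists were chosen with earlier results of these data known. Other genes named from a list are its up to 3 called genes with the smallest p and a mean of at least 4 CPM. GGT1 had 2 entries and the first was used. Alternatives covered scaling, count filters, DESeq2 1.42.0, a replicate block, a fit of only the groups compared, and each library left out. No pairing of libraries by replicate number was seen across groups: correlations of their deviations over 10 pairs of groups ran from -0.0328 to 0.0185. Because these deviations were mostly counting noise, a pairing could have gone unseen.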

Additional observations from a re-analysis of the deposited data

Results flagged for a closer look

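For 8 of the 9 genes the VXN effect was called larger in HT29 than in t-hESC cells, beside 22.9% of all genes tested. The test was of the difference itself (edgeR, HT29 minus t-hESC, log2 scale). The differences were 1.80 for GCLC, 1.49 for GCLM, 0.82 for SLC7A11, 0.41 for NQO1, 1.73 for TXNRD1, 2.32 for SRXN1, 0.62 for GSR and 2.70 for OSGIN1, each with a larger effect in HT29 cells. The groups have 2 libraries each, so no library was examined as standing apart within its group.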

How the results depend on the processing

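Over 63 values, the log2 fold changes of the 9 genes in 7 comparisons, 17 alternatives gave 1071 results, of which 1041 kept direction and side of the threshold, 20 lost the call, 2 gained one and 8 changed sign; none of the 8 was a called value. Member counts stayed at 9 for VXN in HT29, 8 for the difference between lines, 9 for the lines with DMSO and 8 with VXN under every alternative. With 1 library left out, values that changed sign ranged under BIX from -0.094 to 0.022 for NFE2L2 (above 0 without the first BIX library), -0.059 to 0.0058 for TXNRD1 (without the second DMSO library) and -0.86 to 0.28 for OSGIN1 (without the second BIX or the first DMSO library), and from -0.38 to 0.72 for OSGIN1 under VXN in t-hESC (below 0 without the second DMSO library). GSR between the lines with VXN turned to -0.00652 with size factors of the DESeq2 type, -0.052 with upper-quartile factors and -0.00661 in DESeq2.

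DESeq2 called 1 of the 9 genes under BIX against 2 in edgeR, and 3158, 4086 and 2982 genes in all for BIX, VXN and VXN over BIX in t-hESC, against 5199, 6531 and 5110 in edgeR; the cause was not tested. Leaving out 1 library gave 1 to 3 members called under BIX and 3 to 5 for VXN over BIX. All genes called then ranged from 3871 to 5403 for BIX, 4856 to 6731 for VXN in t-hESC, 12199 to 13786 for VXN in HT29, 3652 to 4958 for VXN over BIX, 8721 to 9893 for the difference, 18302 to 19604 for the lines with DMSO and 18894 to 20041 with VXN. With the replicate number as a block, 5101 genes were called under BIX, 6442 under VXN in t-hESC and 13426 under VXN in HT29, and NQO1 lost its call for VXN over BIX (0.13 on the log2 scale, edgeR adjusted p = 0.0560). Depth limits OSGIN1 in t-hESC, with 7 to 24 reads per library. A lone library left in a group is assumed to vary like the others.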

Other observations

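The mitochondrial counterpart of TXNRD1 stood out in the comparison of the lines. TXNRD2, the mitochondrial thioredoxin reductase, averaged 42.8 ± 0.98 CPM in HT29 VXN, 72.0 ± 0.83 CPM in HT29 DMSO, 2.34 ± 0.44 CPM in t-hESC VXN, 1.02 ± 0.013 CPM in t-hESC BIX and 1.93 ± 0.0054 CPM in t-hESC DMSO (SD, n = 2 each). It was 5.22 ± 0.098 higher on the log2 scale in HT29 than in t-hESC cells with DMSO (edgeR adjusted p = 1.04e-51). Under VXN in HT29 cells TXNRD2 fell by 0.75 ± 0.052 (edgeR adjusted p = 2.03e-20), while TXNRD1 rose by 1.84 ± 0.029.

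GPX2, a glutathione peroxidase of the gut epithelium, averaged 668.9 ± 1.50 CPM in HT29 VXN and 575.4 ± 4.33 CPM in HT29 DMSO (SD, n = 2 each), and 3 to 12 reads were counted in each t-hESC library.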
